A study of Mus musculus with 11 samples.

Results

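Toll-like receptors are transmembrane proteins that recognise conserved molecules of microbes and products of damaged cells. The genes described here are all those whose symbol is Tlr followed by a number and which have a probe named in the platform annotation. This rule gave 9 genes (Tlr1, Tlr2, Tlr3, Tlr4, Tlr5, Tlr6, Tlr7, Tlr8 and Tlr13) with 12 probes, of 10623 genes and 45281 probes measured in all. Tlr9, Tlr11 and Tlr12 had 0 named probes and were not analysed here. None of the 9 receptor genes passed the test in any of 6 comparisons, although in wild-type hosts all 9 had a higher mean signal in drug-treated tumours.

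The receptors signal through adaptor proteins, chiefly Myd88 and Ticam1, to the transcription factors NF-kB and the interferon regulatory factors, and so induce cytokines, chemokines and type I interferon. Tlr1, Tlr2, Tlr4, Tlr5 and Tlr6 act mainly at the cell surface, and Tlr3, Tlr7, Tlr8 and Tlr13 in endosomes, where they meet nucleic acids. Macrophages, dendritic cells and neutrophils carry most of them, and in tumours treated with anthracyclines the receptors Tlr3 and Tlr4 are known as sensors of dying cancer cells.

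The samples were tumours from C57BL/6 mice aged 10 to 12 weeks that carried a subcutaneous fibrosarcoma, and the study's title names formyl peptide receptor 1 (Fpr1), a phagocyte receptor for formylated peptides, in anthracycline chemotherapy. The 4 groups were FPR1-/- hosts (KO) given doxorubicin (KO DX, 2 arrays), FPR1-/- hosts given PBS (KO PBS, 3 arrays), wild-type hosts given doxorubicin (WT DX, 3 arrays) and wild-type hosts given PBS (WT PBS, 3 arrays). When a tumour measured 25 to 45 mm2, DX mice had doxorubicin, an anthracycline, injected into the tumour at 2.9 mg/kg in 50 microlitres of PBS, and tumours were taken 2 days later. The genotype is that of the host mouse, and how the knockout was made is not given in the sources used here. Among the probes with names at hand none was named Fpr1, so the genotype labels could not be checked against the deleted gene. The source names count up from MCA 205 to MCA 215 over the 11 samples, which was taken as 1 tumour line, MCA 205, with a running number. All 9 fibroblast markers on a fixed list, collagen genes among them, were detected on all 11 arrays. The labels do not say whether arrays of a group came from separate mice, so p-values measure the spread between these samples.

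The 11 arrays lay on 5 BeadChips, and 16169 to 18221 probes were detected on each (35.7% to 40.2%). Both KO DX arrays shared chip 4 with WT PBS 2. The KO PBS arrays 1, 2 and 3 lay on chips 1, 2 and 5, the WT DX arrays on chips 1, 3 and 5, and the WT PBS arrays on chips 2, 4 and 5. Both arrays of chip 2 were dimmer, with median intensities of 118 and 110 against 151 to 169 on the others. Signals are given as background-corrected, quantile-normalized log2 intensities, so a difference of 1 is a doubling. Each gene stands for its brightest probe, and levels of different genes are not set against each other because probes differ in brightness. Differences were tested with limma over all 10623 genes, and "rose" and "fell" are kept for an adjusted p (Benjamini and Hochberg) under 0.05. The number of arrays limits the precision. In bulk tumours, fewer cells of a type and less RNA per cell cannot be told apart.

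Promoter windows from RefSeq (GRCm38.p6), running from 250 bases before to 50 after a transcript start, were held for 7 of the 9 genes, with 9 windows in all. They are shown for the genes with the greatest and the smallest WT difference in background-corrected signal, Tlr5 (window chr1:182954538-182954837, plus strand) and Tlr2 (window chr3:83841559-83841858, minus strand), with matches to the motifs searched in capitals:
Tlr5: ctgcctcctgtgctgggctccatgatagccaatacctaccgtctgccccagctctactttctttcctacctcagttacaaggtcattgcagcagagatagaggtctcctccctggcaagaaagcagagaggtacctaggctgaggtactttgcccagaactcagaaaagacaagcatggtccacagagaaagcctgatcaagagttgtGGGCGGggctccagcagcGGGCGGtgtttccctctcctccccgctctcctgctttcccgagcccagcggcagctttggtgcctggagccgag
Tlr2: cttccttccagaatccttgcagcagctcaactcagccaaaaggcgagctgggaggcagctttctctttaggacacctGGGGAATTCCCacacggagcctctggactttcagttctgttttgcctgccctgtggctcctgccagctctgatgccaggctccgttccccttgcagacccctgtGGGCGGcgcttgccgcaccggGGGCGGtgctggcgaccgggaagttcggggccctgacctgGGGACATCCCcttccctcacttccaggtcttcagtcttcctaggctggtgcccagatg

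The motifs were the NF-kB consensus, the core of the interferon-stimulated response element, the PU.1 core GAGGAA and the GC box GGGCGG, each searched on both strands. The Tlr5 window held 2 GC boxes and no match to the others. The Tlr2 window held 2 GC boxes and 3 NF-kB matches, of which a pair overlap in one palindromic stretch. Among the other windows, Tlr3 held 1 NF-kB match and 1 GC box, 1 of the 2 Tlr6 windows held 2 of these interferon response cores, and 1 of the 2 Tlr1 windows, Tlr8 and Tlr13 held 1 PU.1 core each. Over all 32851 windows of this length, 4.51% held the NF-kB consensus, 3.44% the interferon response core, 28.3% the PU.1 core and 35.7% the GC box. A match here is a description of the letters.

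Doxorubicin was compared with PBS within each genotype to see which genes differ 2 days after treatment. Over all genes, 0 passed the test in KO hosts (0%) and 66 in WT hosts (0.621%), and none of the 9 receptors was among them. In KO hosts 5 of the 9 were higher in DX tumours, where 48.7% of all genes were, and their median log2 difference was 0.24, against -0.0063 over all genes. In WT hosts all 9 were higher in DX tumours, where 45% of all genes were, and their median difference was 0.47, against -0.030 over all genes. At an unadjusted limma p under 0.05 the count was 1 receptor in KO hosts, against 5.36% of all genes, and 4 in WT hosts (Tlr4, Tlr5, Tlr6 and Tlr13), against 11.7% of all genes. Without background correction, with median scaling and in the authors' table the WT count above 0 stayed at 9, while in KO hosts it was 5, 9 and 4. Median scaling also moved the median of all genes in KO hosts by 0.174.

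**Figure D1:**
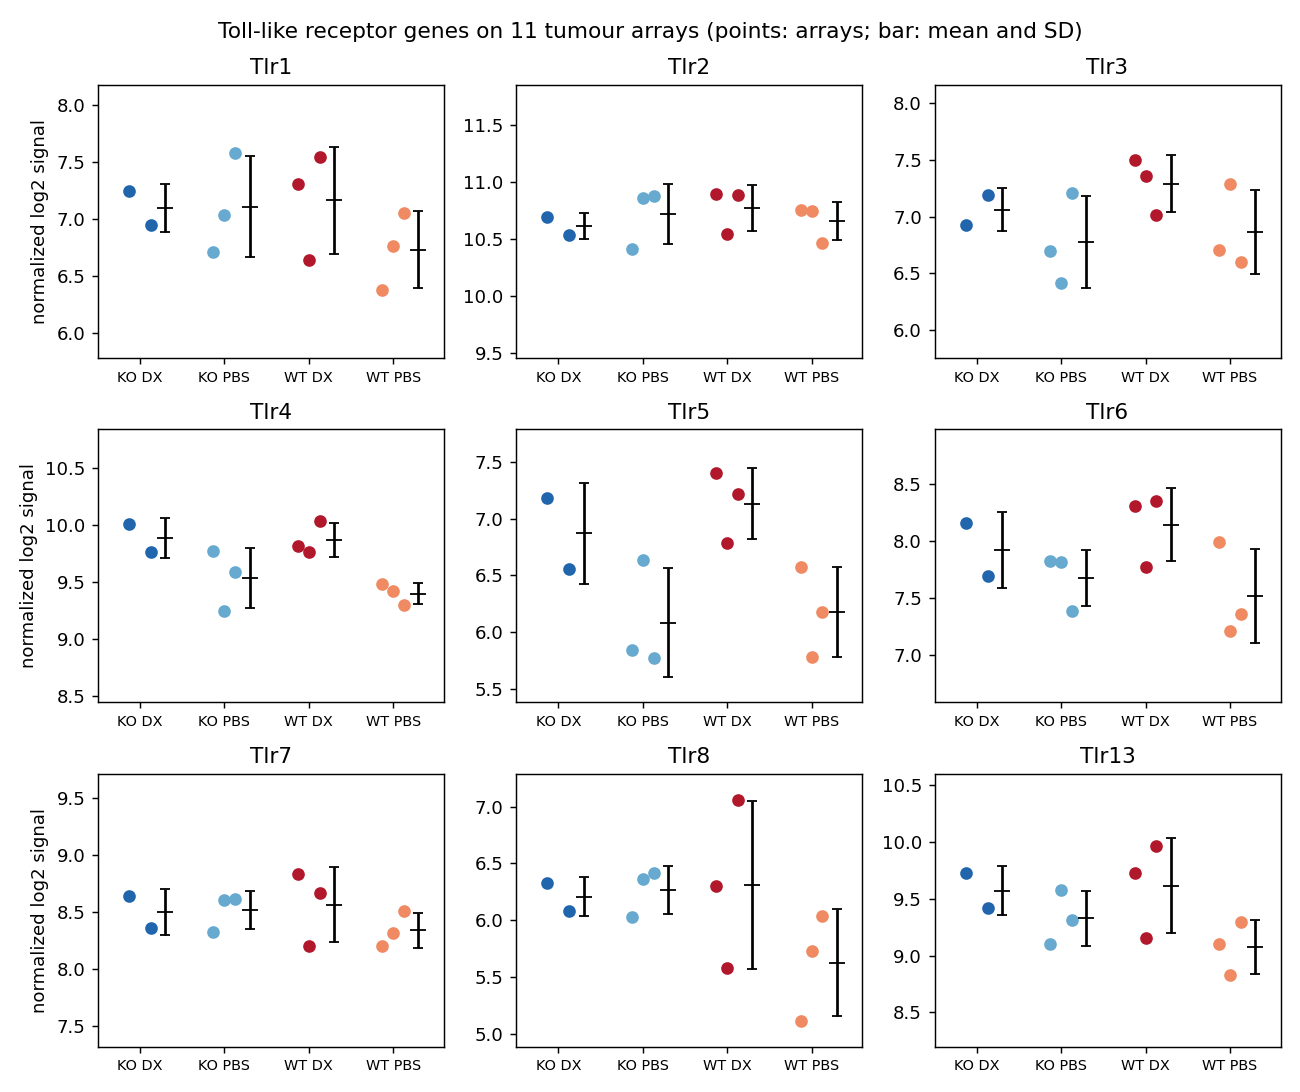
Normalized log2 signal of the 9 Toll-like receptor genes in KO DX, KO PBS, WT DX and WT PBS tumours; each point is an array, the bar is the mean and SD, and every panel spans the same log2 range. In WT hosts only Tlr4 and Tlr5 have all DX points above all PBS points, and in KO hosts every gene has overlapping groups.

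Among the cell surface receptors, Tlr5 (chr1:182954752-182976044, GRCm38.p6), the receptor for bacterial flagellin, had the largest mean difference in background-corrected signal in both genotypes. Its log2 signal was 7.18 and 6.55 in KO DX tumours, against 5.84, 6.63 and 5.77 in KO PBS tumours. In WT DX tumours it was 7.40, 6.79 and 7.21, against 6.57, 5.79 and 6.18 in WT PBS tumours. Every WT DX array lay above every WT PBS array, whereas KO DX 2 lay below the dim array KO PBS 2. The difference was 0.79 in KO hosts (SE 0.318, 95% interval 0.088 to 1.49, adjusted p = 0.873, limma) and 0.95 in WT hosts (SE 0.284, 95% interval 0.33 to 1.58, adjusted p = 0.211, limma), or 1.73-fold and 1.93-fold. Averaged over both genotypes, where 4 receptors had an unadjusted p under 0.05 against 11.6% of all genes, it was 0.87, or 1.83-fold (SE 0.213, 95% interval 0.40 to 1.34, adjusted p = 0.117, limma). The averaged difference passed the test without the chip 2 arrays (1.11, adjusted p = 0.0444, limma), an alternative chosen after seeing the data, and with arrays weighted by quality (1.01, adjusted p = 0.0162, limma). With array weights the WT difference passed as well (1.15, adjusted p = 0.0427, limma), but over the other alternatives on these intensities it did not. On chip 5, the one chip with both WT groups, Tlr5 was 1.03 higher in WT DX 3 than in WT PBS 3. The uncorrected linear intensities of these arrays were 258.5 and 202.7. The Tlr5 probe was dim in PBS tumours of both genotypes. Its uncorrected intensities were 132.5 to 212.8 there, on arrays with medians of 109.7 to 166.7 over all probes. The folds above therefore depend on the background correction. Without background correction the Tlr5 differences were smaller, at 0.29 in KO hosts and 0.38 in WT hosts. Tlr5 was then no longer the largest. Tlr4 gave 0.30 in KO hosts and 0.40 in WT hosts, and Tlr13 gave 0.44 in WT hosts.

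Tlr4 (chr4:66827551-66846581), which binds lipopolysaccharide together with Ly96 and Cd14, was the other gene whose WT groups did not overlap. Its brighter probe read 10.01 and 9.77 in KO DX tumours, against 9.77, 9.25 and 9.59 in KO PBS tumours. In WT DX tumours it read 9.81, 9.76 and 10.04, against 9.48, 9.42 and 9.30 in WT PBS tumours. The WT DX arrays were all above the WT PBS arrays, and in KO hosts 1 DX array fell just under the highest PBS array. The difference was 0.35 in KO hosts (SE 0.176, adjusted p = 0.958, limma) and 0.47 in WT hosts (SE 0.157, 95% interval 0.13 to 0.82, adjusted p = 0.262, limma). Over all genes, WT DX arrays lay wholly above WT PBS arrays for 6.26%, against 2 of the 9 receptors. In KO hosts 0 of the 9 receptors had all DX arrays above all PBS arrays, against 13.3% of all genes. A second Tlr4 probe read 9.28 ± 0.05 in KO DX tumours (SD, n = 2) and 9.12 ± 0.09 in KO PBS tumours (SD, n = 3), a difference of 0.16. It read 9.51 ± 0.24 in WT DX tumours and 8.77 ± 0.27 in WT PBS tumours (SD, n = 3 each), a difference of 0.73 (SE 0.17, adjusted p = 0.0979 over all kept probes, limma). The probes followed each other with a correlation of 0.794 over the 11 arrays. On chip 5 they were 0.74 and 1.08 higher in WT DX 3 than in WT PBS 3.

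Tlr2 (chr3:83836272-83841824) senses bacterial lipopeptides as a dimer with Tlr1 or Tlr6. It varied least of the 9 genes, with all 11 arrays within 0.49 log2 units. It averaged 10.61 ± 0.11 in KO DX tumours (SD, n = 2) and 10.72 ± 0.26 in KO PBS tumours (SD, n = 3). It averaged 10.78 ± 0.20 in WT DX tumours and 10.66 ± 0.17 in WT PBS tumours (SD, n = 3 each). Both differences were smaller than the spread between replicates, at -0.11 in KO hosts (95% interval -0.52 to 0.31) and 0.12 in WT hosts (95% interval -0.25 to 0.49).

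Its partners did not pass the test in either genotype. Tlr6 (chr5:64953092-64970942) read 8.16 and 7.69 in KO DX tumours, against 7.82, 7.81 and 7.39 in KO PBS tumours. In WT DX tumours it read 8.31, 7.77 and 8.35, against 7.99, 7.21 and 7.36 in WT PBS tumours. WT DX 2 lay below the dim array WT PBS 1, so the groups overlapped. The difference was 0.25 in KO hosts (SE 0.269, adjusted p = 0.985, limma) and 0.63 in WT hosts (SE 0.241, 95% interval 0.096 to 1.16, adjusted p = 0.333, limma). A dimmer Tlr6 probe was detected on 4 of 11 arrays, in 1 of 2 KO DX, 2 of 3 KO PBS, 0 of 3 WT DX and 1 of 3 WT PBS tumours, and it correlated with the brighter one at 0.266. Its difference was -0.36 in KO hosts and -0.11 in WT hosts, the opposite sign from the brighter probe in both. Tlr1 (chr5:64924680-64933600) ran from 6.38 to 7.58 over all arrays, with KO PBS 3 the highest and WT PBS 1 the lowest. Its difference was -0.013 in KO hosts (95% interval -0.70 to 0.67) and 0.43 in WT hosts (95% interval -0.18 to 1.04), and neither passed the test.

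Of the endosomal receptors, Tlr13 (chrX:106143275-106160493), which recognises bacterial ribosomal RNA, had the smallest p in WT hosts. It read 9.72 and 9.42 in KO DX tumours, against 9.10, 9.58 and 9.31 in KO PBS tumours. In WT DX tumours it read 9.73, 9.15 and 9.96, against 9.10, 8.83 and 9.30 in WT PBS tumours. WT DX 1 and WT DX 3 lay above all WT PBS arrays and WT DX 2 lay within their range. The difference was 0.24 in KO hosts (SE 0.245, adjusted p = 0.981, limma) and 0.54 in WT hosts (SE 0.219, 95% interval 0.055 to 1.02, adjusted p = 0.368, limma). A second Tlr13 probe gave 0.31 in KO hosts and -0.091 in WT hosts. That probe averaged 7.09 ± 0.40 in WT DX tumours and 7.18 ± 0.12 in WT PBS tumours (SD, n = 3 each), and it correlated with the brighter one at 0.304. The WT direction of Tlr13 and Tlr6 thus rests on the brighter probe.

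Tlr8 (chrX:167241123-167264329) is the neighbour of Tlr7, and its human counterpart binds single-stranded RNA. It spanned the widest range, 1.95 log2 units over 11 arrays, and was detected on 10 of them. It read 6.33 and 6.08 in KO DX tumours, against 6.03, 6.36 and 6.42 in KO PBS tumours. In WT DX tumours it read 6.30, 5.58 and 7.06, against 5.11, 5.73 and 6.04 in WT PBS tumours. The WT DX arrays spread over more than the difference between the group means, with WT DX 3 highest and WT DX 2 under most PBS arrays, and WT PBS 1, the array without detection, was lowest. The difference was -0.062 in KO hosts (SE 0.372) and 0.68 in WT hosts (SE 0.333, 95% interval -0.048 to 1.42, adjusted p = 0.462, limma).

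Tlr7 (chrX:167303380-167330574), the sensor of single-stranded RNA, averaged 8.50 ± 0.20 in KO DX tumours (SD, n = 2) and 8.51 ± 0.17 in KO PBS tumours (SD, n = 3). It averaged 8.56 ± 0.33 in WT DX tumours and 8.34 ± 0.15 in WT PBS tumours (SD, n = 3 each). The differences, -0.015 in KO hosts and 0.22 in WT hosts, were within 1 SD of replicates in at least one group of each pair. Tlr3 (chr8:45395665-45411075), the receptor for double-stranded RNA, averaged 7.06 ± 0.19 in KO DX tumours (SD, n = 2) and 6.77 ± 0.40 in KO PBS tumours (SD, n = 3). It averaged 7.29 ± 0.25 in WT DX tumours and 6.86 ± 0.37 in WT PBS tumours (SD, n = 3 each). Its groups overlapped in both genotypes, with differences of 0.29 (95% interval -0.30 to 0.87) in KO hosts and 0.43 (95% interval -0.096 to 0.95) in WT hosts. WT PBS 2, at 7.28, lay above WT DX 3, at 7.01. In KO hosts the Tlr3 difference turned to -0.28 with the BeadChip as a fixed block.

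**Figure D2:**
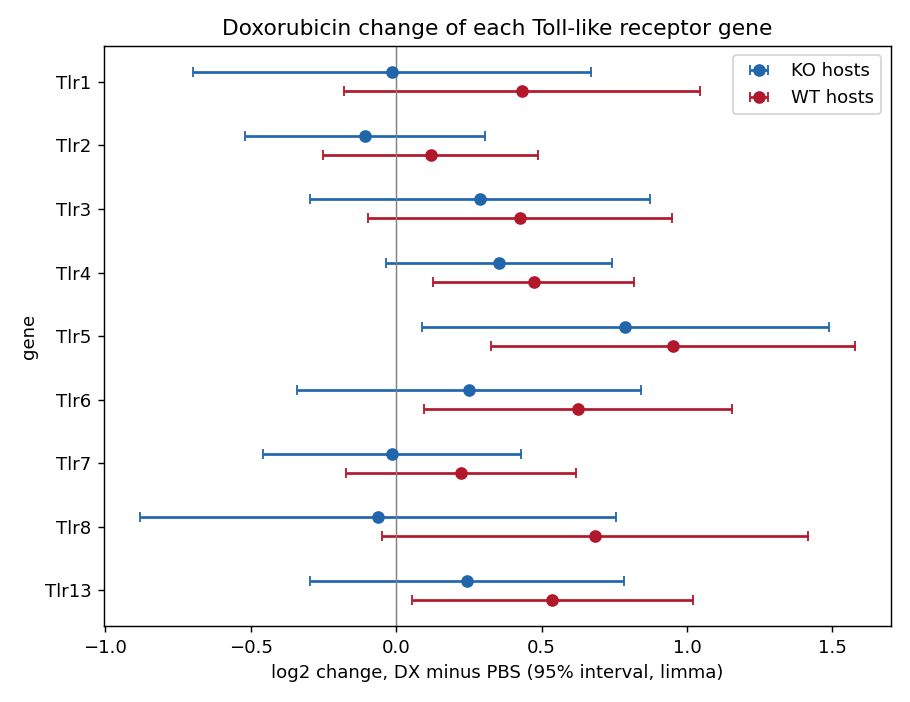
Log2 difference between DX and PBS tumours for each Toll-like receptor gene in KO hosts (blue, upper of each pair) and WT hosts (red, lower), with limma's 95% interval that is not adjusted for the number of genes. The WT estimate lies right of the KO estimate for all 9 genes, and for all 9 the intervals overlap.

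The difference between the genotypes' responses was tested as an interaction. By the brightest probes the KO difference was the smaller one for all 9 genes, by 0.12 (Tlr4) to 0.75 (Tlr8) on the log2 scale. The median interaction was -0.24 against 0.018 over all genes, of which 52.6% were above 0. The second probes gave -0.57 for Tlr4, -0.25 for Tlr6 and 0.40 for Tlr13, so for Tlr13 the sign depended on the probe. With median scaling 1 of the 9 interactions was above 0. None passed the test, nor did any gene of the series (0%), and every adjusted p of a receptor was 0.992 (limma). At an unadjusted p under 0.05 the count was 0 receptors by the brightest probes, against 4.69% of all genes. The second Tlr4 probe had an unadjusted p of 0.0469 (adjusted p = 0.957 over all kept probes, limma). For Tlr8 the interval ran from -1.85 to 0.35, so neither a much smaller KO response nor an equal one lay outside it. For Tlr5 it ran from -1.10 to 0.77. No chip held both groups of KO hosts, so the KO response and the interaction have no within-chip value.

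The genotypes were then compared within each treatment. KO PBS tumours were higher than WT PBS tumours for 7 of the 9 genes, with differences from -0.099 (Tlr5) to 0.64 (Tlr8) and a median of 0.16, where 50.1% of all genes were higher. Of all genes 1 passed this test (0.00941%) and no receptor did. All 9 receptors overlapped between these groups, while KO PBS arrays lay wholly above WT PBS arrays for 4.9% of genes and wholly below for 4.48%. Tlr8 averaged 6.27 ± 0.21 in KO PBS tumours and 5.63 ± 0.47 in WT PBS tumours (SD, n = 3 each; 95% interval of the difference -0.090 to 1.37, adjusted p = 0.997, limma). On the chips that held both groups, Tlr8 was higher in KO PBS by 1.25 on the dim chip 2 and by 0.38 on chip 5. After doxorubicin, KO tumours differed from WT tumours by -0.26 (Tlr5) to 0.018 (Tlr4). Here 8 of the 9 genes were lower in KO DX tumours, where 53.3% of all genes were higher, and their median was -0.10 against 0.017 over all genes. With median scaling, which moved the median of all genes by 0.184, 6 of the 9 were above 0 and their median was 0.067 against 0.202 over all genes. Again 0 of the 9 receptors passed, against 0% of all genes, and all 9 overlapped between KO DX and WT DX arrays, while 15.4% of all genes lay wholly higher and 11.7% wholly lower in KO DX. At an unadjusted p under 0.05 no receptor differed between genotypes, against 5.48% of all genes in PBS tumours and 6.7% in DX tumours.

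Single arrays differed across the family as a whole. WT DX 1 and WT DX 3 were above the 11-array mean for all 9 genes, by 0.38 and 0.45 on average, while WT DX 2 was above it for 3 genes and averaged -0.098. The 3 WT PBS arrays averaged -0.26, -0.29 and -0.21. KO DX 1 averaged 0.25 and KO DX 2 averaged -0.013, against -0.22, -0.013 and 0.011 in KO PBS 1, 2 and 3. WT DX 2 was thus the DX array of WT hosts nearest to the PBS arrays, and it is also the one array alone on its chip. Leaving it out took the Tlr5 difference to 1.12 (adjusted p = 0.0974, limma), and no receptor passed without it.

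**Figure D3:**
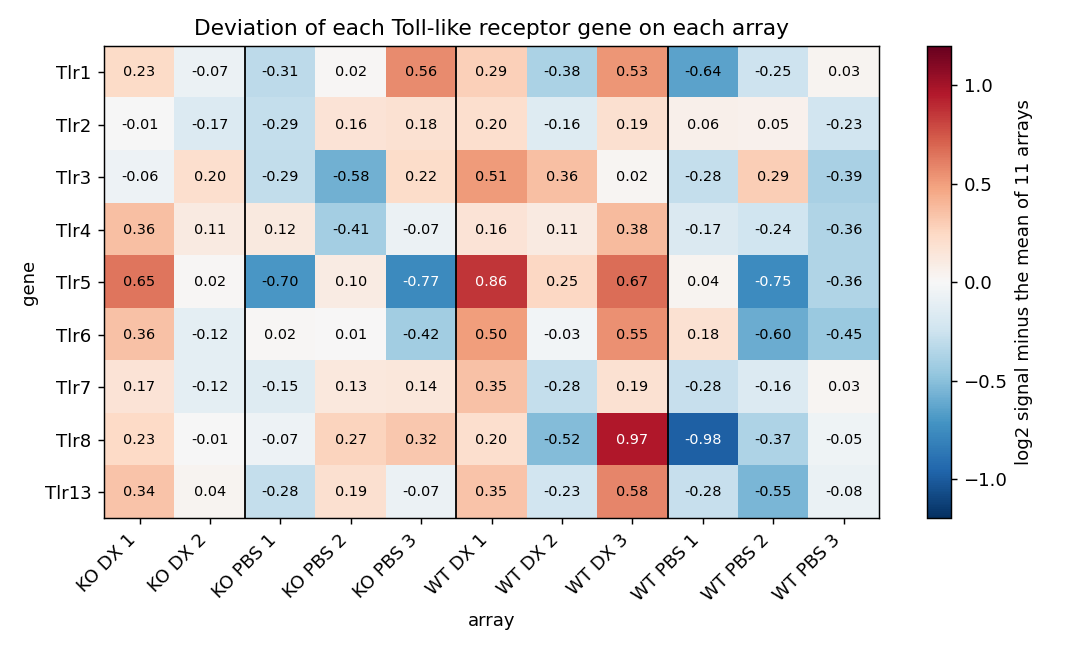
Log2 signal of each Toll-like receptor gene on each array minus the gene's mean over 11 arrays, with columns grouped as KO DX, KO PBS, WT DX and WT PBS; red is above the mean and blue below. WT DX 1 and WT DX 3 are above the mean for all 9 genes, and WT DX 2 for 3 of them.

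Markers of cells that carry these receptors were read on the same arrays, as sums of normalized linear signal over fixed lists. These lists too were chosen with earlier results of these data known. The macrophage and monocyte list had 13 of 16 members measured, all detected on all arrays. It summed to 27473 to 30437 in KO DX tumours, against 32772 to 36894 in KO PBS tumours. As a mean over its genes of the log2 deviation from the 11-array mean, which the brightest genes do not dominate, these groups overlapped, with -0.26 to 0.067 in KO DX and -0.100 to 0.060 in KO PBS tumours. In WT DX tumours it summed to 36447, 26008 and 41542 for replicates 1, 2 and 3, against 29563 to 32351 in WT PBS tumours. By this sum WT DX 2, low for most receptors, was the lowest of the 11 arrays, and WT DX 1 and 3 were above all WT PBS arrays. By the mean deviation WT DX tumours ran from -0.19 to 0.58, against -0.29 to -0.018 in WT PBS tumours, so the lowest array was not a WT DX one. The neutrophil list had 8 of 14 members measured, 5 of them detected on all arrays, and Ly6g, Camp, Ngp, Elane, Mpo and Mmp8 were not among the measured genes. It summed to 4609 to 6218 in KO DX tumours, against 3459 to 3708 in KO PBS tumours, and to 5333 to 6521 in WT DX tumours, against 2022 to 3084 in WT PBS tumours. The dendritic cell list, with 7 of 11 measured and 2 detected on all arrays, overlapped between groups, with 639 to 861 in KO DX, 816 to 906 in KO PBS, 626 to 2258 in WT DX and 711 to 1210 in WT PBS tumours. The skeletal muscle list had all 13 members measured, 10 of them detected on all arrays, and summed to 6410 to 8660 in KO DX tumours, against 7438 to 8028 in KO PBS tumours, and to 15509 to 28052 in WT DX tumours, against 7797 to 11321 in WT PBS tumours. The red blood cell list, with 4 of 7 measured and 3 detected on all arrays, summed to 5154 to 5331 in KO DX tumours, against 6154 to 12630 in KO PBS tumours, and to 2000 to 4282 in WT DX tumours, against 7741 to 26866 in WT PBS tumours. The adipocyte list, with 4 of 7 measured and 3 detected on all arrays, overlapped in KO hosts. It summed to 1301 to 2938 in WT DX tumours, against 596 to 1055 in WT PBS tumours. By the mean deviation its WT groups overlapped, at -0.17 to 1.07 in WT DX and -0.69 to 0.017 in WT PBS tumours. The mast cell list, with 8 of 9 measured and 7 detected on all arrays, likewise overlapped in KO hosts. It summed to 2780 to 6180 in WT DX tumours, against 1942 to 2745 in WT PBS tumours. By the mean deviation its WT groups overlapped as well, at -0.58 to 1.17 in WT DX and -0.59 to 0.17 in WT PBS tumours. The sums of the plasmacytoid dendritic cell, B cell, T and NK cell, endothelial, fibroblast and keratinocyte lists overlapped between WT DX and WT PBS tumours. In KO hosts the first pair of these lists did not overlap. The B cell list, with 4 of 9 measured and 1 detected on all arrays, summed to 151 to 189 in KO DX tumours, against 202 to 605 in KO PBS tumours. The plasmacytoid dendritic cell list summed to 9409 to 10129 in KO DX tumours, against 7742 to 9049 in KO PBS tumours, but overlapped by the mean deviation. The part of these cells in the receptor values was not tested.

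Within the family, the 36 pairs of genes correlated over the 11 arrays at -0.002 to 0.902, with a median of 0.416. These correlations describe arrays that share groups and chips and carry no test. The closest pairs were Tlr1 with Tlr8 (0.902), Tlr1 with Tlr7 (0.874) and Tlr5 with Tlr6 (0.867). Tlr2 correlated with its dimer partners Tlr1 and Tlr6 at 0.524 and 0.334, and Tlr1 and Tlr6 reached 0.213 with each other. Tlr3 stood apart, with no correlation above 0.463 to any other member. Over all genes, those with the pattern most like Tlr5 were Tmbim6 (0.947), Slfn1 (0.929) and Slc7a8 (0.927). For Tlr4 they were Pmaip1 (0.944), Mmp12 (0.937) and Csta2 (0.92). Mmp12 encodes a metalloproteinase of macrophages. For Tlr6 they were Nhsl2 (0.968), Lmo2 (0.953) and Lst1 (0.948), and for Tlr13 Tmem185b (0.955), Arhgap30 (0.954) and Sh3bp2 (0.947). For Tlr2 they were Itgae (0.912), Tns1 (0.897) and Rassf5 (0.897), and for Tlr1 Clec4b1 (0.911), Cd300a (0.904) and Tlr8 (0.902). Tlr7 was most like Rac2 (0.898), Fgd2 (0.889) and Olfr352 (0.886). Tlr8 was most like Sh3tc1 (0.909), Pigz (0.905) and Tlr1 (0.902). The genes most like Tlr3 were Ikzf5 (0.914), Ccl12 (0.907) and Trim30a (0.888). Ccl12 encodes a monocyte-attracting chemokine and Trim30a is an interferon-induced gene.

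The rest of the pathway was read from 6 lists, chosen with earlier results of these data known, so their counts are descriptions. In WT hosts 9 of 33 induced genes and 2 of 20 endogenous ligands rose, while 0 of 18 co-receptor and 0 of 26 signalling genes passed the test. Of 18 measured co-receptor and trafficking genes, 0 passed in either genotype, and their median difference was 0.0017 in KO hosts and 0.29 in WT hosts. Ly96, the partner of Tlr4, differed by 0.17 in each, and Cd14 by -0.083 in KO hosts and 0.13 in WT hosts. Unc93b1, which carries the endosomal receptors to endosomes, differed by 0.0049 in KO hosts and 0.40 in WT hosts (adjusted p = 0.536, limma). Cnpy3, a chaperone of the receptors, differed by 0.74 in KO hosts (adjusted p = 0.925, limma) and -0.14 in WT hosts. Its probe was dim, at 4.85 to 6.35 over all arrays, so these differences say little. Of 26 signalling genes, 0 passed, with medians of 0.065 in KO hosts and 0.053 in WT hosts. Myd88 differed by 0.049 and Ticam1 by 0.052 in KO hosts, and by 0.35 and -0.12 in WT hosts. The Ticam1 probe was dim, at 5.27 to 5.82 over all arrays. Tirap, which bridges Tlr2 and Tlr4 to Myd88, differed by 0.096 in KO hosts and -0.026 in WT hosts. Traf6, the ubiquitin ligase further down, differed by -0.0022 in KO hosts and 0.025 in WT hosts. Irf7, which switches on interferon genes, differed by 0.41 in KO hosts and 0.73 in WT hosts (adjusted p = 0.268, limma).

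Of 20 measured negative regulators, 0 passed within either genotype, with medians of 0.023 in KO hosts and 0.33 in WT hosts. Tnfaip3 and Nfkbia, NF-kB inhibitors that NF-kB itself induces, differed by 0.25 and 0.036 in KO hosts and by 0.75 and 0.64 in WT hosts (adjusted p = 0.0746 and 0.0813, limma). Irak3, a decoy kinase of macrophages, differed by -0.030 in KO hosts and 0.57 in WT hosts, and Tollip by 0.011 and 0.059. Averaged over genotypes, where 0.537% of all genes passed and 46.5% were above 0, 0 of 9 receptors passed and 9 were above 0, while the regulators Nfkbiz (0.63, adjusted p = 0.0319, limma) and Dusp1 (0.64, adjusted p = 0.0453, limma) rose. Their calls were lost under 13 and 12 of 25 other settings.

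Of 20 measured endogenous ligands, 0 passed in KO hosts (0% of all genes) and 2 rose in WT hosts (0.555% of all genes), S100a8 and S100a9, the subunits of calprotectin, a neutrophil protein that binds Tlr4. S100a9 read 10.76 and 10.13 in KO DX tumours, against 9.08, 8.56 and 9.03 in KO PBS tumours. It read 9.99, 10.32 and 10.85 in WT DX tumours, against 7.45, 6.89 and 7.30 in WT PBS tumours. The groups did not overlap in either genotype, and the difference was 1.56 in KO hosts (adjusted p = 0.213, limma) and 3.17 in WT hosts (adjusted p = 0.000397, limma). S100a8 differed by 1.19 in KO hosts and 2.72 in WT hosts. Both genes also stand on the neutrophil list, whose summed signal is given above. Hmgb1, a nuclear protein that binds Tlr4 once released, differed by 0.037 in KO hosts and -0.45 in WT hosts and did not pass. Its probe was dim, at 4.60 to 5.77 over the 11 arrays, so these differences say little.

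Of 33 measured genes that the receptors induce, 0 passed in KO hosts and 9 rose in WT hosts, where 0.555% of all genes rose. As the list was chosen with earlier results of these data known, this comparison of shares carries no test. Their median difference was 0.19 in KO hosts and 0.80 in WT hosts, and 32 of the 33 were above 0 in WT hosts, against 45% of all genes. The 9 were the chemokines Cxcl2 (3.79), Ccl3 (2.09), Cxcl1 (1.70) and Ccl4 (1.52), the cytokines Ifnb1 (1.54), Il1b (1.28) and Csf2 (0.73), and Lcn2 (2.07) and Slpi (1.15), both made by neutrophils. The number that rose fell to 3 without WT DX 3, to 4 without WT DX 1, KO PBS 3 or WT PBS 3, to 5 without WT PBS 2 and to 6 without KO PBS 1 or KO PBS 2, and it was 14 without WT DX 2 and 7 without both arrays of chip 2. Cxcl2, Cxcl1 and Ccl4 passed in WT hosts under all 25 alternatives on a single value per gene. The calls of Lcn2, Ifnb1, Il1b, Slpi and Ccl3 were lost under 13, 9, 8, 8 and 3 of them. That of Csf2 was lost under 16 of 24. The Csf2 probe was dim, at 4.66 to 5.68 over all arrays. Its WT difference ran from 0.21 to 0.94 over these 24 alternatives, so its place among the 9 says little. Ifnb1, the type I interferon that Tlr3 and Tlr4 induce through Ticam1, read 6.94 and 6.89 in KO DX tumours, against 5.56, 5.72 and 5.65 in KO PBS tumours. It read 7.76, 7.92 and 7.26 in WT DX tumours, against 6.67, 6.23 and 5.42 in WT PBS tumours. The DX arrays lay above the PBS arrays in both genotypes, and the differences were 1.27 in KO hosts (adjusted p = 0.433, limma) and 1.54 in WT hosts (adjusted p = 0.0347, limma). Its interaction of -0.27 did not pass the test (adjusted p = 0.992, limma). The other induced genes fixed for description did not pass in WT hosts, with 1.05 for Il6, 0.80 for Cxcl10 and 0.34 for Tnf. The Il6 probe was dim, at 4.59 to 6.42 over all arrays, so its difference says little. Cxcl1 was higher in KO PBS than in WT PBS tumours by 1.34 (adjusted p = 0.0312, limma), the one gene of the series past the threshold there, and this call was lost under 13 of 25 alternatives.

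Among 30 other pattern recognition receptors, 0 passed in KO hosts (0% of all genes) and 1 rose in WT hosts (0.555% of all genes), Ifi205, an interferon-inducible gene of the family that includes DNA sensors (1.29, adjusted p = 0.0286, limma; lost under 8 of 25 alternatives). Their median difference was 0.048 in KO hosts and 0.35 in WT hosts, with 27 of 30 above 0 in WT hosts, where 45% of all genes were. Nod2, which senses bacterial cell wall fragments, differed by 0.18 in KO hosts and 0.32 in WT hosts. Its probe was dim, at 4.75 to 5.97 over all arrays, so these differences say little. Fpr2, a receptor related to the deleted Fpr1, differed by 0.093 in KO hosts and 0.61 in WT hosts (adjusted p = 0.430, limma).

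**Figure D4:**
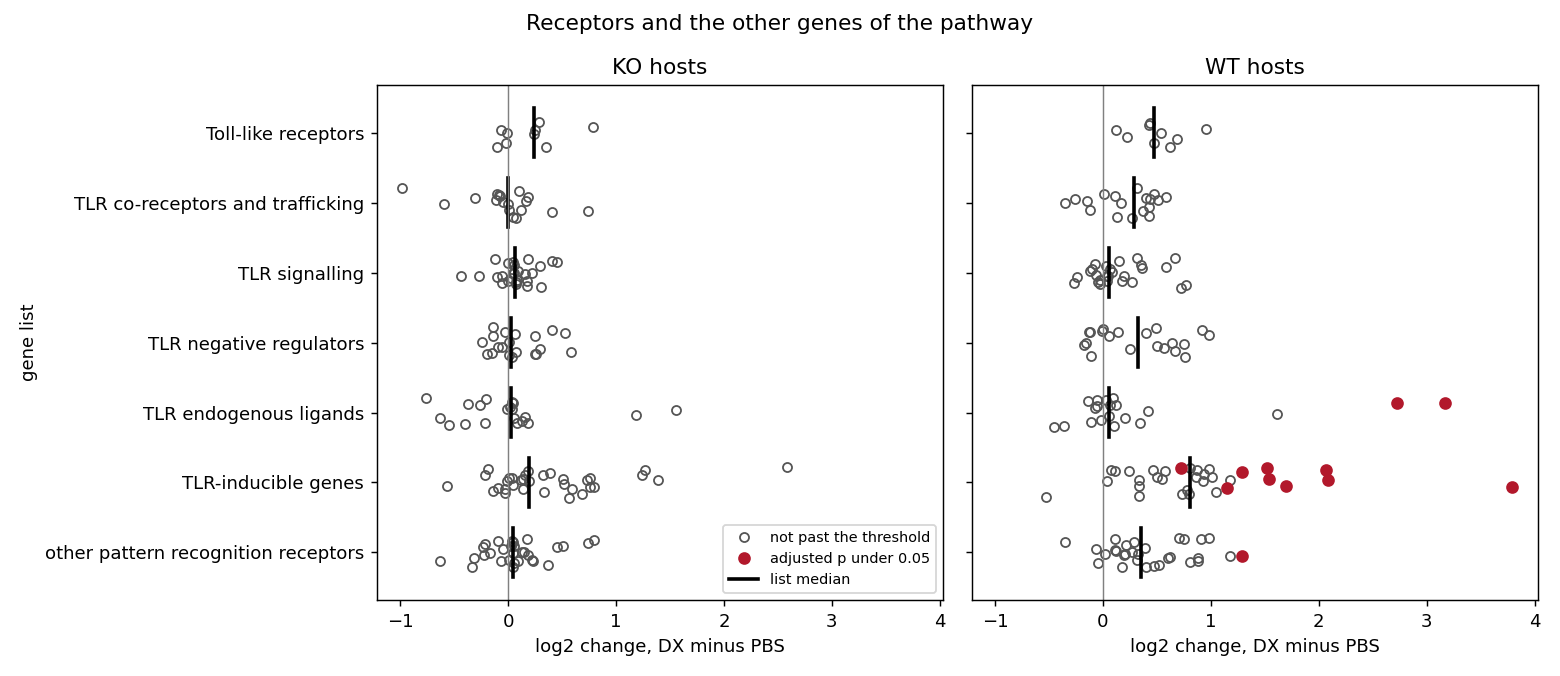
Log2 difference between DX and PBS tumours for the 9 Toll-like receptor genes and the measured members of 6 pathway lists, in KO hosts (left) and WT hosts (right); each circle is a gene, filled circles passed the adjusted threshold of 0.05 and the black line is the list's median. Filled circles appear in WT hosts only, 9 of them among the induced genes and 0 among the Toll-like receptors, and the difference between the genotypes passed for none of these genes.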

How the data were processed

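The main deposited file holds linear intensities of 45281 probes, not normalized per the file headers, and beside each a detection p-value, also the authors' per the file headers. A second deposited table holds the authors' log2 values of 19215 probes (column medians 8.39 to 8.404). Partek is the one tool in the submitters' processing notes. That table came out the same, within 0.0071 log2 units (median absolute difference 5.2e-06), as quantile-normalized log2 intensities with BeadChip effects removed and group means kept. Its within-group deviations had 3 dimensions instead of 7, so a test treating its columns as independent overstates precision. It served as an alternative.

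In limma 3.58.1 (R 4.3.3), neqc corrected the intensities (background inferred from the detection p-values, offset 16, quantile normalization, log2). Probes with detection p under 0.05 on at least 2 arrays were kept (20433). The platform annotation was held for the 19215 probes of the authors' table. It named 16496 probes with 1 symbol, 9 with several and left 2710 of 19215 unnamed, and 16479 matched GRCm38.p6 gene tables by Entrez number. The brightest kept probe stood for a gene (10623 genes). One model gave each of 4 groups a mean (7 residual and 4.04 prior degrees of freedom), with Benjamini-Hochberg adjustment over all genes within a contrast. The fit was tested on simulated data. Members, gene lists and markers were chosen with earlier results of these data known. Named genes were each receptor, its 3 most correlated genes, up to 6 genes past the threshold per pathway list and a fixed set, of which Irak4 and Nlrp3 were not among the measured genes. Csf2 and Lcn2, outside this rule, complete a count and were chosen after their values were seen. Alternatives changed the background correction, scaling, filter, probe rule, samples, BeadChip or replicate block, weights and spread.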

Additional observations from a re-analysis of the deposited data

How the results depend on the processing

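In WT hosts all 225 receptor values from 25 alternatives kept their direction, against 205 of 225 in KO hosts and 220 of 225 averaged over genotypes. Several alternatives cannot move a difference within a genotype, such as leaving out an array of the other genotype or changing only the spread. The counts therefore overstate how far the direction was tested. The fit of every probe is outside these counts, and in it the dimmer Tlr6 and Tlr13 probes gave -0.11 and -0.091 in WT hosts. The number of receptors past the threshold, 0 in each comparison, was 0 in every fit that left out 1 array. In the authors' table it was 8 for doxorubicin in WT hosts, 5 in KO hosts, 6 averaged, 5 for the interaction, 2 for KO minus WT in PBS tumours and 4 in DX tumours, where 51.3%, 47.8%, 43%, 55.7%, 24.1% and 55.8% of all genes passed. With the BeadChip as a block in that table, added after seeing the data, it was 1 in WT hosts (Tlr13 0.69, adjusted p = 0.0424, limma) and 2 averaged (Tlr13 and Tlr5). Array weights gave 1 in WT hosts and 1 averaged, and leaving out chip 2, also added later, gave 1 averaged, Tlr5 each time; the cause was not tested.

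Single receptors were followed through the alternatives in the DX comparisons, and in the interaction and the genotype comparisons for Tlr8 alone. Of the values followed, 20 changed sign in KO hosts, 5 averaged and 4 for Tlr8 in KO minus WT in DX tumours, and none of these passed the test. Under median scaling, over all 9 receptors, 6 were above 0 in KO minus WT in DX tumours and 1 in the interaction, where 1 and 0 had been. In KO hosts median scaling gave 0.18 for Tlr1, 0.085 for Tlr2, 0.19 for Tlr7 and 0.11 for Tlr8, having moved the median of all genes by 0.174 there, by 0.184 for KO minus WT in DX tumours, by 0.116 averaged and by 0.114 for the interaction. Tlr3 was -0.14 in the authors' table, with or without the block, and -0.28 with the BeadChip as a fixed block. Tlr6 was -0.054 with the mean of its probes, and Tlr7 was 0.0033 with a random chip block and 0.030 without chip 2. Leaving out each array gave -0.21 to 0.22 for Tlr1, -0.16 to 0.13 for Tlr7 and -0.18 to 0.060 for Tlr8 in KO hosts, -0.070 to 0.065 for Tlr2 averaged over genotypes, and -0.47 to 0.27 for Tlr8 in KO minus WT in DX tumours. That last value was 0.014 with median scaling.

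No pairing by replicate number was seen. In deviations from group means, same-numbered arrays correlated at -0.291 to 0.304 (15 pairs) and other-numbered arrays at -0.304 to 0.272 (30 pairs). Arrays that shared a BeadChip ran no higher, at -0.229 to 0.272 (7 pairs), and the check cannot exclude pairing. The fit with the replicate block called 0 receptors in each comparison and 63 genes in WT hosts beside 66, and in KO hosts it gave 0.18 for Tlr1, 0.046 for Tlr7 and 0.16 for Tlr8, and 0.11 for Tlr8 in KO minus WT in DX tumours.

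The count of all genes in WT hosts ran from 10 without WT DX 3 and 12 with only the groups of the contrast to 363 with array weights and 5532 in the authors' table. In KO hosts it ran from 0 to 28 outside that table. The 9 induced genes that rose in WT hosts became 3 with only the groups of the contrast, 6 with median scaling, 17 with array weights and 29 in the authors' table (14 with the BeadChip block).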
